A study of Arabidopsis thaliana with 56 samples.

Results

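The regions described here are stretches of Arabidopsis thaliana endosperm chromatin. They lay under called peaks of H3K27me3, histone H3 trimethylated at lysine 27, in WT and not in crwn1/2. Lost thus means without a called peak, and H3K27me3 signal outside called peaks was not measured. Chromosomes 1 to 5 were divided into bins of 150 bp. A bin was counted as lost when a deposited peak covered it in all 3 WT endosperm lists and in none of the 3 crwn1/2 endosperm lists, and neighbouring lost bins were joined. The rule gave 1623 regions made of 7676 bins, or 1151.4 kb. Across the whole series, the bins under a peak in any of the 12 H3K27me3 lists joined into 5780 regions. The regions were thus chosen by the peak cover of these 6 lists, so their cover in the 6 endosperm lists is a description and carries no test.

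The groups were WT endosperm, crwn1/2 endosperm, WT leaf and crwn1/2 leaf, each with 3 H3K27me3 lists, and 20 endosperm mRNA libraries. The mRNA libraries comprised 4 of WT and 3 of crwn1/2 at 6 days after pollination (DAP), 4 of WT and 5 of crwn1/2 at 7 DAP, and 4 of crwn1/2 at 8 DAP. Endosperm samples were nuclei sorted at 6C from the seeds of several siliques, and leaf samples pooled nuclei of 2C, 4C, 8C and 16C from leaves at leaf position 5. The day of the endosperm H3K27me3 samples is not given in the labels, so they could not be matched to a day of the mRNA series. The labels name no alleles for crwn1/2, and do not say whether replicates came from separate plants, so p-values measure the spread between these samples, which may be technical.

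H3K27me3 is laid down by Polycomb repressive complex PRC2 and marks genes that are held silent in a tissue, often over whole gene bodies in plants. In the endosperm, the nutritive tissue that feeds the embryo, a PRC2 form with the subunit FIS2 restrains proliferation and keeps some parental alleles silent. CRWN proteins are coiled-coil components of the lamina at the inner face of the plant nuclear envelope, which touches much of the silent chromatin. CRWN1 and CRWN2 transcripts (AT1G67230 and AT1G13220, listed in RefSeq as LINC1 and LINC2) were counted in every mRNA group. In counts scaled to library size (CPM), CRWN1 overlapped between genotypes, with 6 DAP means of 116 ± 30.8 CPM for WT and 81.2 ± 32.6 CPM for crwn1/2 (SD, n = 4 and 3). At 7 DAP its means were 90.9 ± 16.7 and 89.7 ± 20.6 CPM (SD, n = 4 and 5), so its mRNA level does not check the labels. CRWN2 was lower in crwn1/2 without overlap, with 53.5 to 90.3 CPM in WT and 23.7 to 36.9 CPM in crwn1/2 at 6 DAP, and 34.8 to 44.8 and 14.2 to 33.0 CPM at 7 DAP. Of 5 nuclear lamina genes tested, CRWN2 among them, 1 was called lower at 6 DAP (edgeR adjusted p under 0.05). At 7 DAP none was called lower and 1 higher, so the CRWN2 difference did not pass on that day. Of all genes tested, 6.15% were called lower at 6 DAP, and 10.5% lower and 11.7% higher at 7 DAP. Group names below follow the labels.

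The lost regions were 6.26% of the 18.4 Mb that lay under peaks in all 3 WT endosperm lists, and 60.8% of that length was under peaks in all 6 endosperm lists and is called kept. The mirror set, under peaks in all 3 crwn1/2 lists and in no WT list, came to 203 regions and 105.3 kb, or 0.854% of the length in all 3 crwn1/2 lists. The lost length was 10.9 times the mirror length. The reads inside peaks differed between the genotypes in the same direction. They numbered 2.2 M, 2.21 M and 2.83 M in WT replicates 1 to 3 and 1.59 M, 0.514 M and 1.15 M in crwn1/2. The WT peaks covered 23.8 to 26.4 Mb and the crwn1/2 peaks 16.7 to 22.1 Mb. The part of the number of reads in the loss was not tested. Without crwn1/2 replicate 2, the list with the fewest reads, the rule gave 2081 lost regions of 1635.75 kb and a mirror set of 583.65 kb. The mirror set was also larger without any other single list, at 180.45 to 213.0 kb. The lost length also moved by over 1.5 times without WT replicate 1 (1826.85 kb), WT replicate 2 (1911.15 kb), crwn1/2 replicate 1 (1808.85 kb) or crwn1/2 replicate 3 (2040.0 kb), each time because fewer lists had to meet the rule.

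Lost bins lay under weaker and shorter WT peaks than kept bins. The median log2 enrichment that the authors gave the covering WT peak was 0.91, 0.83 and 0.87 for lost bins in WT replicates 1 to 3 and 1.21, 1.23 and 1.25 for kept bins. The median covering peak was 4.5 kb, 3.9 kb and 5.1 kb long for lost bins and 8.85 kb, 9.3 kb and 10.35 kb for kept bins. Lost bins were nevertheless mostly inside confident WT peaks, with 95.5%, 93.9% and 96.2% of them under a peak at the authors' FDR of at most 0.001. With the bins in all WT lists ranked by mean enrichment and split into 4 equal classes, 13.5% of the weakest class was lost, against 6.43%, 3.79% and 1.33% of the next classes up. Just outside the rule, 13536 bins had all 3 WT lists and 1 crwn1/2 list, with median WT log2 enrichments of 0.94, 0.9 and 0.94. Another 12144 bins had 2 WT lists and no crwn1/2 list, with medians of 0.73, 0.72 and 0.75. The bins with 1 crwn1/2 list thus had WT enrichments close to those of lost bins. Those with 2 WT lists had lower ones in each WT list.

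Most losses were partial. Each lost region was placed within the run of bins that any WT endosperm peak covered around it. In 885 regions (54.5%) a crwn1/2 peak lay in that run on 1 side only, so the region was the edge of a domain that crwn1/2 still held. In 553 regions (34.1%) crwn1/2 peaks lay in the run on both sides, so the region was a gap inside a domain. In 185 regions (11.4%) no crwn1/2 peak covered any of the run, and these are called whole losses. A whole loss is only the part of its run in all 3 WT lists, and 1 run can hold several. The 185 are thus not a count of domains. At chr1:1773751-1778400, for instance, 4650 bp of a run of 11.1 kb met the rule. Whole losses were longer, with a median of 1350 bp against 450 bp for edges and for gaps, and held 287.25 kb, or 24.9% of the lost length. Their median WT log2 enrichment was 0.67, against 0.88 at edges and 1.04 in gaps. When each endosperm list was left out in turn, the share of whole losses lay between 10.2% and 13.4%.

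**Figure D1:**
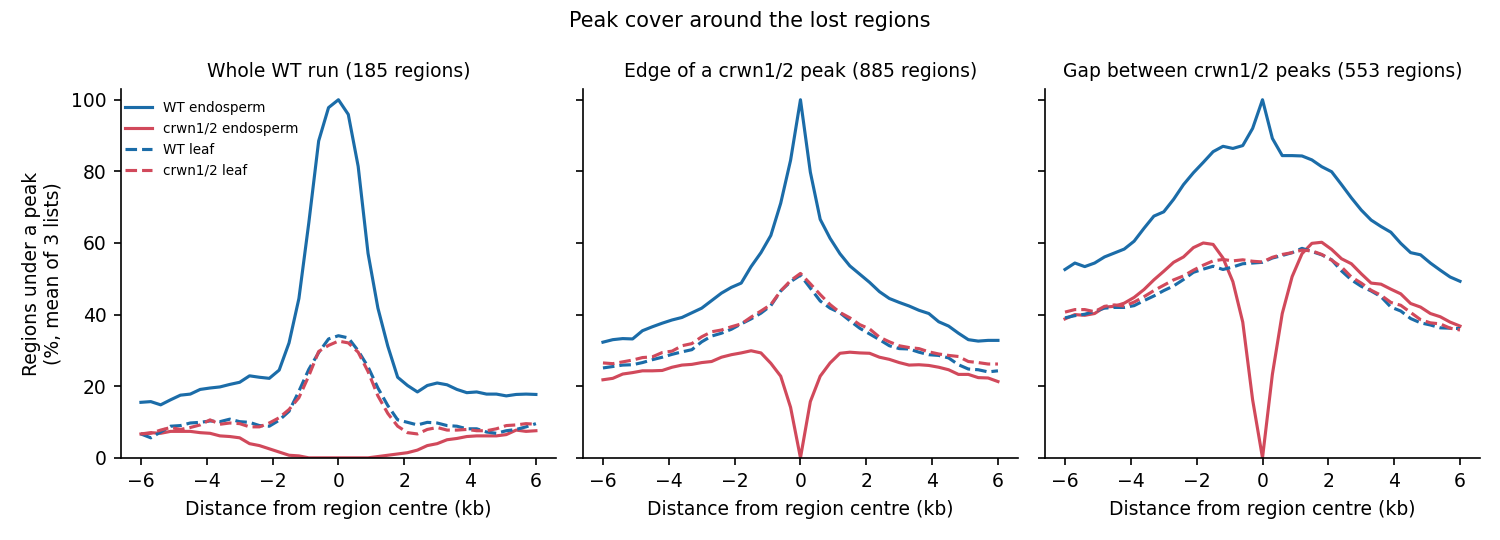
Peak cover around the centres of the lost regions, for whole losses, edges and inner gaps; the x axis is the distance from the centre in kb and the y axis the percentage of regions under a peak, averaged over the 3 lists of each group. At the centre WT endosperm is at 100% and crwn1/2 endosperm at 0% by the rule, and at 1.5 kb on either side of inner gaps the crwn1/2 endosperm lists cover 59.6% and 59.9% of regions.

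The plot of peak cover around the centres shows the surroundings of each place, which its definition largely fixes in the endosperm lists. At 3 kb from the centre of whole losses, the WT endosperm lists covered 21.1% and 20.9% of regions on the left and right and the crwn1/2 lists 5.59% and 3.96%. At the same distance from inner gaps WT covered 68.7% and 69.2% and crwn1/2 52.1% and 51.4%. Directly beside the lost region, crwn1/2-covered bins stood on neither side in 309 regions, on 1 side in 1079 and on both sides in 235.

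The regions were short, with a median of 450 bp, upper quartile of 900 bp and a longest of 7050 bp. Single bins made up 415 regions (25.6%) but 5.41% of the lost length. The 202 regions of at least 10 bins made up 12.4% of the regions and 38.1% of the length. Seen from the WT peaks, 1359 of 5669, 1385 of 5503 and 1338 of 5382 peaks in replicates 1 to 3 held a lost bin (24%, 25.2% and 24.9%). At least 50% of the peak was lost in 215, 273 and 185 of these, and the entire peak in 45, 71 and 29.

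Lost regions were spread over all chromosomes in near proportion to the WT domains. Chromosomes 1 to 5 held 459, 244, 303, 226 and 391 of them, and the lost share of the length in all WT lists was 6.29%, 6.02%, 5.93%, 5.77% and 6.98%. Whole losses were 12.4%, 13.1%, 12.5%, 7.08% and 10.7% of the regions. Within chromosomes the share varied more widely. Of 121 windows of 1 Mb, 116 held a lost region, and among the 109 windows with at least 20 kb in all WT lists the lost share ran from 0.704% to 26.4% with a median of 6.49%. The lowest was at 21 to 22 Mb of chromosome 1, where 1.95 kb of 277.05 kb was lost. The highest was at 13 to 14 Mb of chromosome 5, where 7.05 kb of only 26.7 kb was lost. The window at 1 to 2 Mb of chromosome 1 lost 25.9% of 115.95 kb in 29 regions. The most regions, 35, lay at 18 to 19 Mb of chromosome 3, where they were 8.06% of a denser WT landscape of 290.4 kb.

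**Figure D2:**
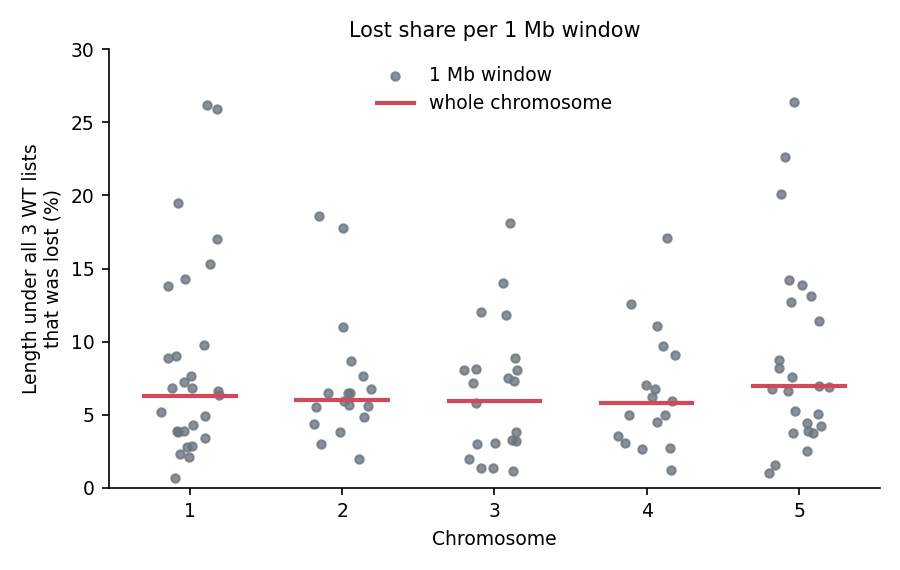
Share of the WT H3K27me3 length that was lost in each of the 109 windows of 1 Mb, by chromosome; points are windows with at least 20 kb in all 3 WT lists and red lines the whole chromosome. The lines lie between 5.77% and 6.98%, while windows run from 0.704% to 26.4%.

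About 50% of the regions had a close neighbour. With regions at most 10 kb apart joined, there were 1144 groups, of which 832 were single regions and 312 held 2 or more. These 312 held 791 regions (48.7%). Only 11 groups held 5 or more, with 64 regions in all. The median gap between neighbouring lost regions on a chromosome was 31.8 kb, and 80 gaps (4.94%) were at most 1 kb. The largest group had 9 regions, with 11.85 kb lost in a span of 34.65 kb at chr4:16494001-16528650.

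In leaf, which the rule did not use, 39.7%, 40.0% and 39.1% of the lost length lay under peaks in WT replicates 1 to 3, and 39.8%, 42.4% and 36.6% in crwn1/2. The WT values sat inside the crwn1/2 range. The means were 39.6% ± 0.462 in WT and 39.6% ± 2.91 in crwn1/2 (SD, n = 3 each), and the mutant mean differed by -0.013 points (two-sided exact permutation test, p = 1.0, where 0.1 is the smallest p that 3 against 3 allows). The sign of this small difference turned when single lists were left out, within -1.4 to 1.49 points. A drop in crwn1/2 leaf over the regions lost in endosperm was not detectable against this spread between lists.

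Lost regions were less often marked in leaf than kept ones. Kept bins were covered for 86.9% ± 0.529 of their length in WT leaf and 87.2% ± 2.25 in crwn1/2 leaf (SD, n = 3 each). The lost bins were lower in 6 of 6 leaf lists, by 47.5 percentage points on average, with differences of -48.1 to -46.3 points. This is a description, because the same 2 sets of bins were read in each list. Lost bins also had weaker WT endosperm peaks than kept bins, as given above, and the part of peak strength in this difference was not tested. The mirror set was covered for 31.3%, 24.1% and 25.4% in WT leaf and 48.3%, 48.7% and 20.8% in crwn1/2 leaf, with no call (exact permutation p = 0.4).

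**Figure D3:**
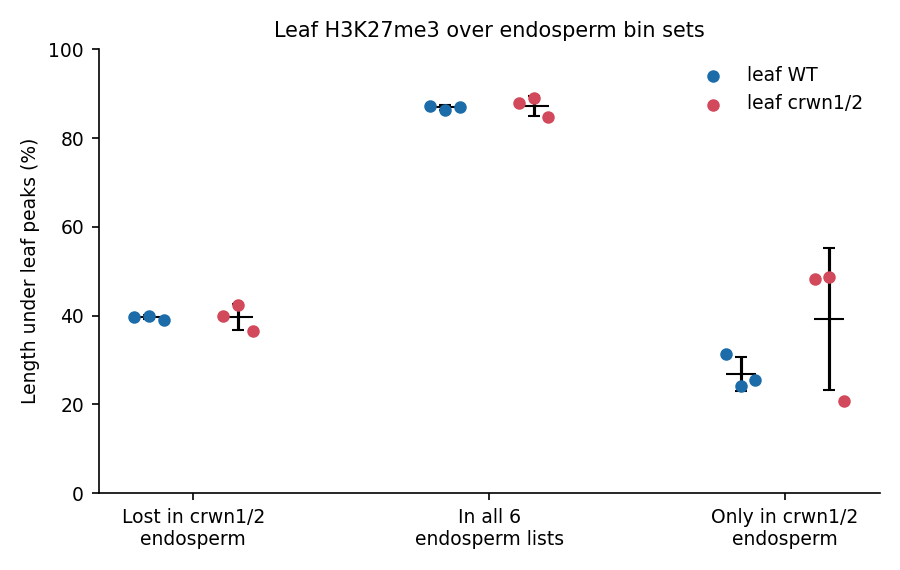
Percentage of the length of each endosperm bin set that lay under leaf H3K27me3 peaks; points are the 3 lists of each genotype and bars the mean and SD. Lost bins sit between 36.6% and 42.4% and kept bins between 84.7% and 89.1% in both genotypes.

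The lost regions were mixed in their leaf state. Taking a region as marked in a list when at least 50% of it was covered, 612 regions (37.7%) were marked in no leaf list, 620 (38.2%) in all 6, and 391 in some. Over bins, 49.4% of the lost length (569.1 kb) lay under no leaf list and 29.0% (334.2 kb) under all 6, while for kept bins these shares were 7.7% and 80.6%. Turned around, 20.9% of the WT endosperm length without any leaf list was lost, against 2.63% of the length under all 6 leaf lists. When each endosperm list was left out in turn, the share of regions marked in no leaf list lay between 29.7% and 40.0%. The same rule applied to the leaf lists gave 207.75 kb, or 1.03% of the length in all 3 WT leaf lists. In both tissues 3.9 kb was lost, which is 0.339% of the endosperm loss and 1.88% of the leaf loss. A bin can be lost in leaf only where all 3 WT leaf lists cover it. Of the endosperm-lost bins so covered, 26 lay under no crwn1/2 leaf list, and 74, 258 and 2228 under 1, 2 and 3. The small overlap is thus no sign that the losses avoid each other.

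Long losses were mostly absent from leaf. Single-bin regions had 59.8% of their length under WT leaf peaks and regions of 450 to 600 bp 54.3%, while regions of 1500 to 2850 bp had 30.2%. The 25 regions of at least 3000 bp had 6.9% in WT leaf and 4.36% in crwn1/2 leaf, and 23 of them were marked in no leaf list. By place, whole losses had 29.6% of their length under WT leaf peaks, edges 40.3% and gaps 47.5%.

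**Figure D4:**
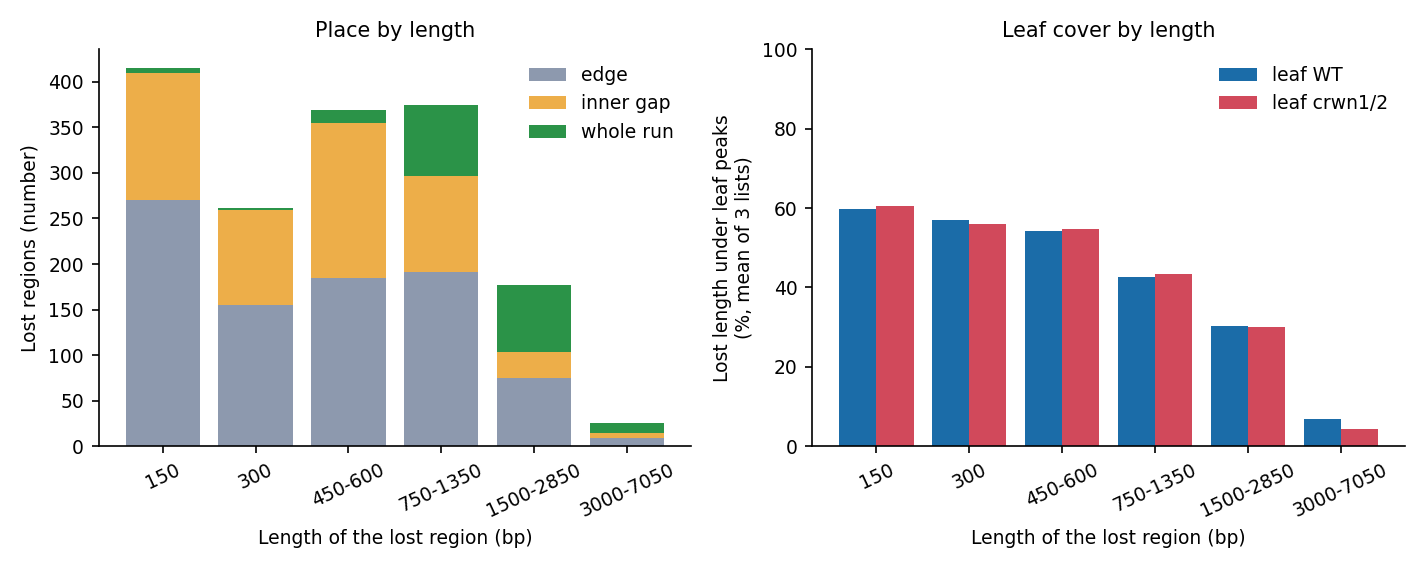
Lost regions by length in bp; the left panel gives the number of regions by place and the right panel the share of their length under leaf peaks (mean of 3 lists). Whole losses are 5 of 415 single-bin regions and 11 of the 25 longest, and the WT leaf cover goes from 59.8% to 6.9%.

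The 10 longest regions held several known genes. The longest, chr5:8257351-8264400 (TAIR10, 7050 bp), was a gap with WT log2 enrichments of 0.81, 0.76 and 0.51 and no leaf cover in any list. It covered 46.1% of GMI1 (AT5G24280), a protein related to structural maintenance of chromosomes proteins that is induced by DNA damage, and 48.9% of MEB2 (AT5G24290), a membrane protein of the ER body. The whole loss at chr1:9194551-9200100 held all of AT1G26620, and the edge at chr3:19182751-19188300 all of AT3G51720 with 75.2% of AT3G51710 and 79.1% of AT3G51730. The whole loss at chr5:6378151-6383700 held 99.9% of LUL3 (AT5G19080), a ubiquitin ligase. The whole loss at chr5:24082201-24087450 held 80.4% of MYB59 (AT5G59780), a transcription factor of the MYB family. The edge at chr5:23222851-23227800 held 55.3% of AT5G57340, and the whole loss at chr1:1773751-1778400 held 94.7% of ARI12 (AT1G05880), an Ariadne-type ubiquitin ligase.

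All of these lay under leaf peaks for 0% of their length. The remaining long regions had some leaf cover. The whole loss at chr1:24030451-24035100 held all of BDG1 (AT1G64670), which is needed for the cuticle, and 16.9% of MGL (AT1G64660), methionine gamma-lyase, whose difference of -0.58 at 6 DAP (edgeR adjusted p = 0.0446) was lost in 15 of 25 alternatives. Its cover ranged from 38.7% to 74.2% over the WT leaf lists and from 25.8% to 38.7% over the crwn1/2 leaf lists. The edge at chr4:16524001-16528650 overlapped no gene and lay nearest to AT4G34600, with leaf cover of up to 45.2%. The edge at chr3:4341601-4346100 held all of AT3G13370 and had 33.3% cover in WT leaf replicates 1 and 2 and none in the other leaf lists.

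Gene bodies took 52.3% of the lost length, against 61.6% of the kept and 72.4% of the mirror length. Of the 1623 regions 991 (61.1%) overlapped an annotated gene and 516 lay inside a single gene. At least 150 bp of lost length fell in 894 genes, of which 767 were protein coding. The loss was usually a minor part of the body, with a median of 26.1%. At least 50% of the body was lost in 277 genes and the whole body in 81. Of the 894 genes, 723 held no kept bin, while 163 also held at least 150 bp of kept H3K27me3. Kept bins lay under peaks in every endosperm list, so a gene without them may still lie under peaks in some mutant lists. Such partial cover was not counted per gene.

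At a threshold of at least 50% of the body, genes in lost regions more often reached 1 CPM in WT than genes under kept H3K27me3. The shares were 57.1% and 35.1%. Where the whole body was lost it was 28.9% of 38 genes, and the share for genes with the whole body kept was not computed. Of the 894 genes with at least 150 bp lost, 797 were in the count files. Of these 548 (68.8%) had a mean of at least 1 CPM in WT, beside 63.0% of all annotated genes. These shares are descriptions, because genes of a region share their chromatin. The count filter was passed by 602 of the 797 genes.

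Among these 602 genes the share called higher was above that of all genes at 6 DAP and close to it at 7 DAP, a difference between shares that was not tested. At 6 DAP 59 genes (9.8%) were higher and 41 (6.81%) lower in crwn1/2 (edgeR quasi-likelihood test, Benjamini-Hochberg adjusted p under 0.05), beside 6.84% and 6.15% of all annotated genes tested. At 7 DAP 68 (11.3%) were higher and 61 (10.1%) lower, beside 11.7% and 10.5%. The last comparison set crwn1/2 of 8 DAP beside WT of 7 DAP, so genotype and day differ together. Here 54 (8.97%) were higher and 33 (5.48%) lower, beside 7.38% and 6.02%. The median log2 differences were 0.07, 0.02 and 0.01, beside 0.02, 0.06 and 0.01 for all genes. The counts at 6 DAP fell to 38 (6.08%) and 24 (3.84%) without crwn1/2 6 DAP replicate 2, while the shares of all genes fell to 4.14% and 3.05%. The lower count at 7 DAP fell to 38 (6.42%) without WT 7 DAP replicate 1, beside 7.23% of all genes. The lower count of the last comparison was 20, 18 and 21 without WT 7 DAP replicate 2, crwn1/2 8 DAP replicate 3 and crwn1/2 8 DAP replicate 4. These were 3.34%, 3.03% and 3.52%, beside 4.47%, 3.31% and 3.59% of all genes.

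Where at least 50% of the body was lost, higher calls outnumbered lower ones in each comparison, as they did among all genes. Among the 135 such genes tested, 11 (8.15%) were higher and 5 (3.7%) lower at 6 DAP, beside 6.84% and 6.15% of all genes. At 7 DAP 21 (15.6%) were higher and 10 (7.41%) lower, beside 11.7% and 10.5%, and in the last comparison 14 (10.4%) and 7 (5.19%), beside 7.38% and 6.02%. Their median log2 differences were 0.17, 0.16 and 0.14. Genes with at least 50% of the body kept gave 147 higher and 158 lower of 1670 at 6 DAP, and 149 and 290 at 7 DAP. The difference between these sets was not tested. The last 2 comparisons share the WT 7 DAP libraries.

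Markers of other seed tissues were present in the sorted nuclei. Summed over 7 genes each, seed coat markers reached 677 to 2570 CPM per library, endosperm markers 189 to 347 CPM and embryo markers 57.4 to 237 CPM, and none of the 21 genes was at 0 in any group. At 6 DAP the seed coat sum was 1500 to 1850 CPM in WT libraries and 1950 to 2570 CPM in crwn1/2 libraries, and at 7 DAP 1040 to 1480 CPM and 1070 to 1530 CPM. Of the 7 genes, 3 were higher and 2 lower at 6 DAP, 2 and 3 at 7 DAP, and 2 and 4 in the last comparison, with the shares of all genes called as given above. At 7 DAP the embryo sum was 57.4 to 87.7 CPM in WT libraries and 139 to 195 CPM in crwn1/2 libraries, and 1 of the 6 genes tested was higher. Of 6 endosperm markers tested, 3 were higher and none lower at 6 DAP, and 3 were higher and 1 lower at 7 DAP. Their part in the results below was not tested, and in bulk nuclei fewer nuclei of a type and less RNA per nucleus cannot be told apart.

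Among genes in the longest regions GMI1 rose in crwn1/2. Its CPM were 13.5, 9.24, 5.71 and 12.3 in WT and 33.5, 38.3 and 36.0 in crwn1/2 at 6 DAP. At 7 DAP they were 17.1, 22.2, 19.4 and 19.9 in WT and 27.4, 37.0, 25.1, 24.7 and 32.4 in crwn1/2, and at 8 DAP 36.3, 39.3, 33.4 and 39.7. The genotypes did not overlap at 6 or 7 DAP, and all 8 DAP values of crwn1/2 lay above those of WT at 7 DAP. The log2 difference was 1.81 at 6 DAP (SE 0.22, edgeR adjusted p = 5.47e-06) and 0.92 in the last comparison (SE 0.2, adjusted p = 0.00432). At 7 DAP it was 0.58 (SE 0.19, adjusted p = 0.0316), a call that was lost in 7 of 25 alternatives, with the highest adjusted p of 0.105 without WT 7 DAP replicate 1.

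MYB59 rose at 6 DAP. It had 5.42, 4.26, 1.82 and 3.96 CPM in WT and 26.9, 20.9 and 21.2 CPM in crwn1/2, and it rose by 2.57 on the log2 scale (SE 0.61, edgeR adjusted p = 0.00661). At 7 DAP the genotypes overlapped, with means of 2.9 ± 2.23 CPM (SD, n = 4) and 4.17 ± 2.91 CPM (SD, n = 5), and the log2 difference of 0.53 did not pass (edgeR adjusted p = 0.526). SAG101 (AT5G14930), a lipase-like partner of EDS1 in immunity, and AT5G14920, listed as GASA14 of a gibberellin-stimulated peptide family, shared the gap at chr5:4826551-4830900, which took 96.7% and 81.7% of their bodies and was marked in no leaf list.

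SAG101 had 1.81, 3.53, 0.649 and 1.36 CPM in WT and 7.04, 21.4 and 21.1 CPM in crwn1/2 at 6 DAP, with no overlap and a rise of 3.16 on the log2 scale (SE 0.46, edgeR adjusted p = 5.52e-05). AT5G14920 had 3.85, 4.01, 1.69 and 3.28 CPM in WT and 23.6, 43.3 and 14.6 CPM in crwn1/2, and it rose by 3.07 on the log2 scale (SE 0.54, edgeR adjusted p = 0.000433). Both neighbours thus rose together at 6 DAP. At 7 DAP the values of both genes overlapped between genotypes. SAG101 then had means of 6.31 ± 2.57 and 7.69 ± 1.69 CPM (edgeR adjusted p = 0.629) and AT5G14920 2.8 ± 2.41 and 9.49 ± 4.85 CPM (edgeR adjusted p = 0.0126; SD, n = 4 and 5).

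At 7 DAP other genes inside lost regions rose. AT1G44830, wholly inside the whole loss at chr1:16932901-16935300, had 1.39, 1.74, 3.47 and 1.77 CPM in WT and 12.8, 7.6, 10.6, 10.5 and 14.2 in crwn1/2, and it rose by 2.39 on the log2 scale (SE 0.34, edgeR adjusted p = 5.5e-05). It was at 2.11 in the last comparison (SE 0.35, edgeR adjusted p = 0.000453) and at 0.35 at 6 DAP (adjusted p = 0.551). AT2G46420, with 89.4% of its body lost, had 19.5, 29.3, 28.6 and 29.3 CPM in WT and 60.3, 49.1, 59.5, 42.0 and 61.9 in crwn1/2, and it rose by 1.03 on the log2 scale (SE 0.19, edgeR adjusted p = 0.000647). All crwn1/2 libraries of both genes lay above all WT libraries.

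AT1G07690, with 89.9% of its body lost, had 0.134 to 0.589 CPM in WT and 1.96 to 7.72 CPM in crwn1/2 at 7 DAP (log2 difference 3.61, SE 0.64, edgeR adjusted p = 0.000456). It was also higher at 6 DAP (1.83, edgeR adjusted p = 0.0266), a call lost in 5 of 25 alternatives. In the last comparison its difference of 0.66 did not pass (edgeR adjusted p = 0.579). AT3G13370 had 0.134 to 0.634 and 1.7 to 24.8 CPM (log2 difference 4.98, SE 0.91, edgeR adjusted p = 0.000632). Its rise in the last comparison, 3.46 on the log2 scale, was lost without crwn1/2 8 DAP replicate 1 (2.6, edgeR adjusted p = 0.0774). In WT at 7 DAP AT1G07690 had 11 counts and AT3G13370 had 9 over all libraries, so their log2 differences are imprecise. ABCG1 (AT2G39350), an ATP-binding cassette transporter with 31.9% of its body lost, had 0.134 to 3.14 CPM in WT and 5.42 to 13.9 CPM in crwn1/2 at 7 DAP (log2 difference 2.59, SE 0.52, edgeR adjusted p = 0.00133). At 6 DAP it was higher by 1.69 (edgeR adjusted p = 0.0363), a call lost in 6 of 25 alternatives. In the last comparison it was higher by 2.2 (edgeR adjusted p = 0.00812).

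Other genes with most of their body in lost regions did not pass the test in any of the 3 comparisons, or passed in 1 only. A difference that did not pass is not shown to be absent. AT3G51720, wholly inside a lost edge, had 47.5, 30.8, 45.5 and 36.6 CPM in WT and 37.4, 24.3 and 43.7 CPM in crwn1/2 at 6 DAP, with overlapping values and log2 differences of -0.19, 0.19 and -0.18 over the 3 comparisons (edgeR adjusted p = 0.624, 0.514 and 0.592). AT1G26620, with its whole body in a whole loss, had 5.45 to 8.06 CPM in WT and 11 to 17.3 CPM in crwn1/2 at 6 DAP without overlap, and its difference of 0.91 did not pass (edgeR adjusted p = 0.0846). BDG1 had differences of 0.17, -0.11 and -0.6 and LUL3 of -0.53, -0.06 and 0.31, with adjusted p of at least 0.174. ARI12 was low throughout, with group means of 0.395 to 1.47 CPM, and its difference of -1.36 at 7 DAP did not pass (edgeR adjusted p = 0.0898). AT3G51730, next to AT3G51720 and with 79.1% lost, fell by 0.63 at 7 DAP (SE 0.15, edgeR adjusted p = 0.0047), a call that was lost with no filter on low counts (adjusted p = 0.0715). AT3G51710 had 69 counts over all 20 libraries and was below the count filter.

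The genes with the most lost base pairs included regulators of chromatin. ATRX (AT1G08600), a chromatin remodelling protein that acts with histone H3.3, held 4950 lost bp. Its mRNA was 50.9 ± 12.4 CPM in WT (SD, n = 4) and 68.6 ± 5.9 in crwn1/2 (SD, n = 5) at 7 DAP, and the log2 difference of 0.43 (edgeR adjusted p = 0.0348) was lost in 8 of 25 alternatives, down to 0.3 without WT 7 DAP replicate 4 (adjusted p = 0.148). HAC2 (AT1G67220), a histone acetyltransferase of the CBP family, held 3058 lost bp and had group means of 1.05 to 2.67 CPM with no call. DRIP2 (AT2G30580), also named BMI1A and a RING-finger protein of Polycomb repressive complex PRC1, held 2850 lost bp in a whole loss. It did not pass at 6 or 7 DAP (log2 differences 0.19 and -0.21) and was higher in crwn1/2 at 8 DAP than in WT at 7 DAP, by 0.55 (SE 0.14, edgeR adjusted p = 0.012). The myosin MYA1 (AT1G17580), with 3750 lost bp, and AT3G58640, with 4200, had no call in any comparison. AT1G07650, with 3036 lost bp beside 540 kept, was called higher only in the last comparison (log2 difference 0.64, edgeR adjusted p = 0.0286), and lost that call in 6 of 25 alternatives.

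Several of the strongest mRNA changes were in genes with only a short lost stretch. AT5G57345, with a single lost bin at an edge (10.3% of its body), had 42.7, 51.1, 44.0 and 41.3 CPM in WT and 4.6, 2.34 and 2.4 CPM in crwn1/2 at 6 DAP. At 7 DAP it had 34, 44.8, 53.6 and 46.7 CPM and 3.32, 5.67, 3.78, 2.93 and 5.69 CPM, and the groups were far apart on both days. Its log2 differences were -3.84, -3.39 and -3.45 (SE 0.29, 0.23 and 0.25), with edgeR adjusted p of 9.18e-09, 1.41e-09 and 6.73e-09. The gene lies next to AT5G57340, most of which was lost and which had no call. AT5G15180, with 300 lost bp, had log2 differences of -3.77, -1.75 and -3.09 (edgeR adjusted p = 9.15e-08, 6.24e-05 and 5.55e-07), with 151 to 221 CPM in WT and 7.44 to 17.2 CPM in crwn1/2 at 6 DAP.

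**Figure D5:**
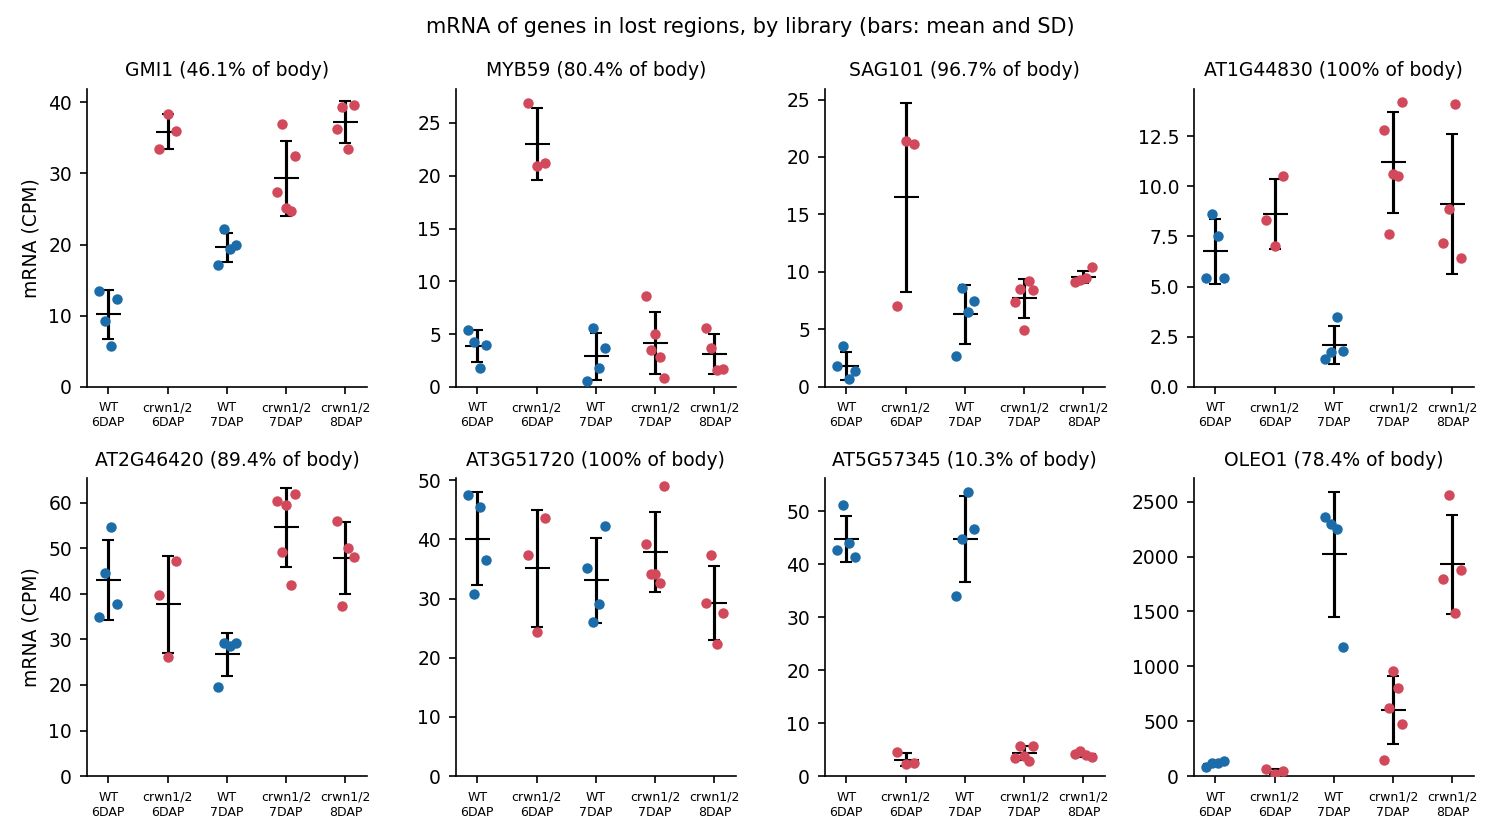
mRNA in CPM per library for 8 genes that overlap lost regions, with the percentage of the gene body in lost regions; points are libraries, bars the mean and SD, blue WT and red crwn1/2. GMI1, MYB59 and SAG101 are higher in crwn1/2 at 6 DAP, AT1G44830 and AT2G46420 at 7 DAP, AT3G51720 overlaps between genotypes, AT5G57345 is lower at 6 and 7 DAP, and OLEO1 is lower at 7 DAP.

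Genes with short lost stretches that rose at 6 DAP were WRKY48 (AT5G49520), a WRKY transcription factor, with 0.361 to 3.51 CPM in WT and 6.48 to 19.1 CPM in crwn1/2, and BGLU45 (AT1G61810), a beta-glucosidase, with 2.98 to 6.5 and 9.17 to 57.2 CPM. Their log2 differences were 2.83 and 2.58 (edgeR adjusted p = 0.00101 and 0.000413), and both kept at least 750 bp of H3K27me3. DEL2 (AT5G14960), an E2F-like regulator, rose at 7 DAP by 2.36 (edgeR adjusted p = 0.00311) with 150 lost bp beside 1050 kept.

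Genes that fell included several enzymes. At 6 DAP these were CYP96A1 (AT2G23180), a cytochrome P450, by 2.95 and NIT4 (AT5G22300), a nitrilase of cyanide detoxification, by 2.9 on the log2 scale (edgeR adjusted p = 0.00371 and 2.95e-05). AT3G04200 had log2 differences of -3.59 at 6 DAP and -2.24 at 7 DAP (edgeR adjusted p = 0.00157 and 0.000745). At 7 DAP AT3G20460 fell by 3.94, from 11.8 to 56.2 CPM in WT to 1.23 to 3.23 CPM in crwn1/2 (edgeR adjusted p = 3.39e-06). CEP1 (AT5G50260), a cysteine endopeptidase of programmed cell death, fell by 1.89 at 7 DAP, from 581 to 862 CPM to 140 to 272 CPM (edgeR adjusted p = 3.39e-06). GAE6 (AT3G23820), an epimerase that makes pectin precursors, had log2 differences of -1.4 at 6 DAP, -0.93 at 7 DAP and -1.73 in the last comparison (edgeR adjusted p = 0.000944, 0.00462 and 6.28e-05). TBL45 (AT2G30010), of the trichome birefringence-like family, fell by 1.48 in the last comparison (edgeR adjusted p = 0.00172).

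OLEO1 (AT4G25140), the oil body protein oleosin, lay mostly in a lost region and was lower in mRNA at 6 and 7 DAP. The whole loss at chr4:12900601-12901500 took 78.4% of its body and was marked in all 6 leaf lists. At 7 DAP it had 2360, 2300, 2250 and 1180 CPM in WT and 149, 616, 960, 799 and 475 CPM in crwn1/2, and the log2 difference was -1.75 (SE 0.36, edgeR adjusted p = 0.00176). In crwn1/2 at 8 DAP it had 1800, 2560, 1490 and 1880 CPM, and the difference to WT at 7 DAP of -0.07 did not pass (edgeR adjusted p = 0.93). At 6 DAP it was -1.47 (edgeR adjusted p = 0.0274), lost in 6 of 25 alternatives, among them without crwn1/2 6 DAP replicate 2 (-1.06, adjusted p = 0.152). Of 17 listed genes of seed storage, oil bodies and maturation OLEO1 was the only one with lost bins, while 11 held at least 150 bp of kept H3K27me3. Among all 37899 annotated genes, 1070 overlapped lost bins and 5313 held at least 150 bp of kept H3K27me3. Of the 17 genes 7 were lower at 6 DAP and 12 at 7 DAP, with median log2 differences of -1.07 and -1.25, beside 6.15% and 10.5% of all genes called lower. In the last comparison 1 was higher and none lower, with a median of 0.24.

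Of all 37899 annotated genes 1070 overlapped a lost bin, a share that stands beside the list counts below. None of 21 type I MADS-box genes, regulators of early endosperm, overlapped a lost bin, and the list is too short to show a lack. Of the 21 genes, 7 held at least 150 bp of kept H3K27me3. Of the 17 tested, 11 were higher and none lower in crwn1/2 at 6 DAP, with a median log2 difference of 3.57 beside 0.02 for all genes, of which 6.84% were called higher. At 7 DAP 6 were higher and none lower (11.7% of all genes higher), and in the last comparison 3 were higher and 1 lower (7.38% and 6.02%). Of 18 flowering, meristem and floral identity genes known as Polycomb targets, 2 overlapped lost bins and 14 held kept ones. AP3 (AT3G54340), a floral organ identity factor, lay for 75.9% in the whole loss at chr3:20119351-20121000, which was marked in all 6 leaf lists. It had 31 to 39.6 CPM in WT and 37.7 to 71.5 CPM in crwn1/2 at 6 DAP (log2 difference 0.7, edgeR adjusted p = 0.0588). MAF5 (AT5G65080), a relative of the flowering repressor FLC, held 600 lost bp, and its difference of -0.79 at 7 DAP did not pass (edgeR adjusted p = 0.0874).

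Of 8 PRC2 subunit genes, FIS2 (AT2G35670) alone held lost bins, 900 bp at an edge that was marked in all 6 leaf lists. Its mRNA overlapped between genotypes at 6 DAP, with 7.02 to 14.9 CPM in WT and 8.12 to 16.1 CPM in crwn1/2, and no comparison passed. FIS2 was also 1 of 2 genes with lost bins among 15 imprinted genes, of which 14 were tested. Of these 7 were higher and none lower at 6 DAP, 7 and 1 at 7 DAP, and 4 and none in the last comparison, beside the shares of all genes given above (6.84%, 11.7% and 7.38% higher). The other imprinted gene, AT4G11400, held 148 lost bp beside 2100 kept and was higher in crwn1/2 at 6 DAP by 1.73 on the log2 scale (edgeR adjusted p = 0.0126). At 7 DAP its difference of 1.21 (edgeR adjusted p = 0.0353) was lost in 6 of 25 alternatives, up to an adjusted p of 0.108 without WT 7 DAP replicate 1. Of 11 genes of salicylic acid and defence, 3 overlapped lost bins, the glucanase BGL2 (AT3G57260, also PR2), PR5 (AT1G75040) and PAD4 (AT3G52430). They had 29, 35 and 86 counts over all 20 libraries and were below the count filter. Among 7 seed coat markers TT10 (AT5G48100), a laccase that browns the seed coat, held 1 lost bin beside 2194 kept bp. No gene of the H3K27 demethylase and Polycomb-associated list, of the nuclear lamina list or of the endosperm and embryo markers overlapped a lost bin.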

How the data were processed

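CUT&RUN for H3K27me3 and SMART-Seq mRNA libraries were sequenced with paired reads of 50 bp, per the labels' protocols. Trim Galore 0.6.7, Bowtie2 2.3.4.1, epic2 (listed as SICER 0.0.52), STAR 2.7.1a, HTSeq and the build TAIR10 are named in the submitters' processing notes. The 12 peak lists lie on a grid of 150 bp and were called per sample. They give read counts per peak, an FDR (a p-value corrected for multiple tests) and a log2 enrichment, all as deposited by the authors, and the control behind the enrichment is not given in the sources used here. The mRNA files hold raw read counts per feature as deposited, with totals of 6.99 to 14.4 M per library and 4.05% to 5.92% of reads outside features. The number of reads limits the precision of low values. The 24 samples of other antibodies and 12 columns of control counts were not used.

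Peak cover was computed per bin with Python 3.11.15 and pandas 2.3.3, and coordinates are printed from base 1. Genes were taken from RefSeq on TAIR10.1, of which no coordinate is printed. As a check of this use, genes wholly under kept bins numbered 1584 at the annotated positions and 1407 and 1402 after shifts of 500 bp either way. Neither strand nor sequence was used.

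mRNA was tested with edgeR 4.0.16 in R 4.3.3 (quasi-likelihood, TMM, filterByExpr with a minimum count of 10 and total of 15) over all 20 libraries, with Benjamini-Hochberg adjustment over 24696 of 63867 features and a threshold of 0.05. CPM of single genes are relative to TMM-scaled totals. Marker sums and the shares of genes at 1 CPM use library totals without TMM scaling. The fit was tested on simulated data. DESeq2 1.42.0 was an alternative, beside other scaling, no filter, a replicate block, fits of the 2 groups only and leaving out each library.

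Genes were named by these rules: those in or nearest the 10 longest regions; the 10 with the most lost bp; up to 5 per direction and comparison with the largest called difference, at least 150 lost bp, a mean of at least 5 CPM and groups that do not overlap; and every list member that overlaps a lost bin. The regions and lists were chosen with earlier results of these data known, so list counts are descriptions.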

Additional observations from a re-analysis of the deposited data

Results flagged for a closer look

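The genotype difference in mRNA differed between 6 and 7 DAP for 8 named genes in lost regions, by the interaction term of the edgeR fit. The share of all genes with such a difference was not counted. Several of these genes were named for a large called difference at 6 or 7 DAP, which favours a difference between the days. The count is thus a description. The log2 difference between crwn1/2 and WT was smaller or lower at 7 DAP than at 6 DAP by -1.24 for GMI1 (adjusted p = 0.0199), -2.87 for SAG101 (adjusted p = 0.00957), -0.81 for AT3G51730 (adjusted p = 0.0474) and -2.74 for AT3G20460 (adjusted p = 0.0369). It was higher at 7 DAP by 1.22 for AT2G46420 (adjusted p = 0.0182), 2.04 for AT1G44830 (adjusted p = 0.0225), 2.02 for AT5G15180 (adjusted p = 0.00802) and 2.39 for NIT4 (adjusted p = 0.00955). SAG101 and GMI1 thus rose most at 6 DAP, and AT1G44830 and AT2G46420 at 7 DAP.

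Single libraries stood apart from the rest of their group in 9 of 176 groups examined, about the 1 in 20 that chance gives. In WT at 7 DAP these were the highest library of AT5G57340 at 11.2 CPM (next 6.09), the lowest of AT2G46420 at 19.5 CPM (next 28.6) and the lowest of OLEO1 at 1180 CPM (next 2250). In crwn1/2 at 7 DAP they were the lowest library of AT3G58640 at 32.6 CPM (next 41.2) and the highest of AP3 at 37.8 CPM (next 21.2). At 8 DAP they were the highest libraries of AT4G34600 at 26.2 CPM (next 5.98), NIT4 at 34.9 CPM (next 18.8), AT5G14920 at 14.5 CPM (next 6.34) and AT5G57340 at 6.79 CPM (next 4.32).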

How the results depend on the processing

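The lost length was 1537.8 to 2040.0 kb when each endosperm list was left out and 923.4 to 1212.2 kb under the other peak thresholds, joins and minimum lengths. Leaving out each list in turn to follow the share of whole losses and of regions without leaf peaks was chosen after seeing the data. The leaf difference between genotypes changed sign with regions of at least 3 bins (0.0198 points), with the share of regions touched by a leaf peak (0.411 points) and when single lists were left out (-1.4 to 1.49 points). With 3 lists a side no setting could have given a call.

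Leaving out single libraries, the number of genes in lost regions called higher was 38 to 66 at 6 DAP, 48 to 88 at 7 DAP and 36 to 64 for 8 against 7 DAP, and called lower 24 to 47, 38 to 67 and 18 to 37. The shares of all genes called higher in the same runs were 4.14% and 6.85%, 7.87% and 14.2%, and 4.48% and 9.2%. Those called lower were 3.05% and 6.6%, 7.23% and 11.7%, and 3.31% and 6.13%. With at least 50% of the body lost the counts were 11, 21 and 14 higher and 5, 10 and 7 lower, since fewer genes qualify. Without a filter on low counts 126 genes (15.8%) were higher at 7 DAP, beside 15.4% of all genes. For 8 against 7 DAP 98 (12.3%) were then higher and 21 (2.63%) lower, beside 9.51% and 2.42% of all genes. In the fit of those 2 groups only, 20 (3.8%) were lower, beside 5.82% of all genes. The cause was not tested. DESeq2 gave 77, 77 and 65 higher (9.66%, 9.66% and 8.16%) and 49, 81 and 41 lower (6.15%, 10.2% and 5.14%). Of all genes it called 6.3%, 8.91% and 6.81% higher and 5.14%, 11.3% and 5.83% lower. Of 53 called values of named genes, 40 kept their call in every alternative run and none changed sign; of 79 not called, 9 passed in at least 1.

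Samples sharing a replicate number did not deviate together (correlations of 0.005 to 0.029 for endosperm lists, -0.059 to 0.043 for leaf lists and -0.115 to 0.104 for mRNA), so the numbers were not taken as pairs, although each endosperm list correlated best with its own number. With a replicate block the counts were 51, 55 and 51 higher and 40, 48 and 29 lower, and the leaf difference was -0.013 points (exact permutation p = 1.0, the smallest possible being 0.25). Of all genes, the fit with a replicate block called 5.97%, 8.59% and 6.77% higher and 5.27%, 7.58% and 5.11% lower. Genes with a lost region over the transcription start and promoter sequences were not run, since strand and sequence were not used.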

Other observations

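Lost regions formed a few dense groups at most 10 kb apart, described here after their values were seen. The group at chr4:16494001-16528650, with 9 regions, touched CIB1, a transcription factor of the bHLH family that partners cryptochrome, THY-2, a thymidylate synthase, AT4G34540 and AT4G34560. The group at chr3:4530601-4562700 had 7 regions with 5.1 kb lost in 32.1 kb, and touched the cell wall invertase CWINV5, LBD22 and the chaperonin HSP60-3A. At chr1:27994051-28012350, 6 regions with 4.5 kb lost in 18.3 kb touched RKD2, an RWP-RK factor of the egg cell. At chr1:6850951-6880650, 6 regions took 10.35 kb of 29.7 kb.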
